A study of Mus musculus with 12 samples.

Results

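The 47 genes described here are Wnt ligands, their receptors and their regulators, measured by RNA sequencing in mouse scars. They were chosen by symbol from a fixed list and not by a rule on their values, although earlier results of these data were known. All 47 were found among the 35976 genes of the count files. The study examined whether Tem1 (Cd248, endosialin), a transmembrane protein of dermal fibroblasts, takes part in scarring induced by mechanical stretching. Every mouse was male and 8 to 12 weeks old, had the hair of the back removed, received a split wound and carried a plastic device over the wound from day 6. Traction scars were stretched with it by 1 mm a day, 8 mm altogether, whereas sham scars carried it without stretching. In Tem1lacZ/lacZ mice the only exon of Tem1 is replaced in the germline by a lacZ reporter, on a line crossed back to C57BL/6J for 10 generations, and Tem1WT/WT mice carry the intact gene. There were 3 mice in each of 4 groups, which are the sham and traction groups of Tem1WT/WT mice and the sham and traction groups of Tem1lacZ/lacZ mice. Each library came from the scar tissue of a different mouse.

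Wnt ligands are secreted lipid-modified proteins that bind Frizzled receptors at the cell surface. In the canonical branch, Frizzled acts with the co-receptors Lrp5 and Lrp6 to stabilise beta-catenin, which enters the nucleus and activates genes with TCF/LEF factors, among them the feedback inhibitors Axin2, Nkd1, Nkd2 and Notum. In the non-canonical branch, ligands such as Wnt5a and Wnt11 act through Frizzled, Ror2 and Ryk on cell polarity and movement. Secreted Frizzled-related proteins (Sfrp), Wif1 and the Dickkopf proteins (Dkk) hold signalling back from outside the cell, and R-spondins strengthen it by keeping Frizzled at the membrane. In skin, Wnt signalling is best known for forming and renewing hair follicles, and it is active in fibroblasts during wound repair and fibrosis.

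The 12 libraries held 41536788 to 64644293 counts on genes, with a median of 48173798. Levels are given as CPM, counts divided by the library total in units of 1000000 after that total was scaled by the TMM method, and differences as log2 fold changes from edgeR with their standard errors (SE). Tem1 itself had 3883 to 16413 counts in the Tem1WT/WT libraries and 0 to 13 in the Tem1lacZ/lacZ libraries, which matches the labels. Defining markers of fibroblasts, keratinocytes, endothelium and macrophages were above 0 in every library, and of all marker genes only Ly6g, a neutrophil gene, was at 0 in any library. Replicate 1 of the Tem1WT/WT traction group stood apart with a summed level of 7553 CPM for 8 neutrophil markers, against 437 and 751 CPM in the other two mice of its group and 84.0 to 547 CPM in the other 3 groups. In whole scar tissue, fewer cells of a type and less RNA per cell cannot be told apart.

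Promoter sequences are shown for Wnt2b, Wnt11 and Fzd1, which passed the test in a traction comparison below and have an entry in the RefSeq promoter table of GRCm38. The table held 35 windows for 32 of the 47 members, and it had no entry for Dkk3, Wnt5a, Lrp5 and Sfrp4, which also passed a test. Each sequence is the stretch upstream of the transcription start, read 5′ to 3′ on the gene's strand, and capitals mark a TCF/LEF core motif. The Wnt2b sequence is chr3:104961710-104961959 on the minus strand, the Wnt11 sequence is chr7:98834862-98835083 on the plus strand and the Fzd1 sequence is chr5:4758217-4758466 on the minus strand.
Wnt2b: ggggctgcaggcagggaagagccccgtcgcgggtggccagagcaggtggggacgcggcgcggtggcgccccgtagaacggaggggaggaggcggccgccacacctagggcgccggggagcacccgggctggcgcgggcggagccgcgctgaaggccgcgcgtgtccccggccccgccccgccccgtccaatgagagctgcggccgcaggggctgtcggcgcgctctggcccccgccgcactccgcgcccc
Wnt11: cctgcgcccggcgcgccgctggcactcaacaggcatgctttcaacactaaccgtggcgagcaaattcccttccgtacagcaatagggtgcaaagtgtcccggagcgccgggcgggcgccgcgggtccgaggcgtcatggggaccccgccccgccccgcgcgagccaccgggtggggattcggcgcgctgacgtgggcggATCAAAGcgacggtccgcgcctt
Fzd1: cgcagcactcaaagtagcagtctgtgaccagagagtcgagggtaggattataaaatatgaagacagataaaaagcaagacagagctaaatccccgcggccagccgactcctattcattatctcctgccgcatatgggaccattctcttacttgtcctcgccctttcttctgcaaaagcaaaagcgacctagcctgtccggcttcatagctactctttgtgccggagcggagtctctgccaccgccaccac
The motif was searched as CTTTG and then A or T at each of the next 2 positions, on either strand in the 250 bases before each start. It was found in 4 of the 35 member windows (11.4%), those of Wnt5b, Wnt11, Fzd7 and Dkk1, and in 14.8% of the 32851 windows of all genes in the table. In Wnt11 the match lies 51 bases before the start used in the promoter table, whose window ends at 98835111. The Wnt11 sequence shown stops earlier, at 98835083, before the gene start at 98835084. A second Wnt11 window, chr7:98838595-98838844, held no match.

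All 47 members had a count in at least 1 library, and 46 had enough counts to be tested among the 18853 genes tested. Dkk1, a secreted inhibitor of Lrp5 and Lrp6, was the member left out, with 0 to 14 counts and 5 libraries at 0, each of which allows up to 3 counts. Compared per kilobase of exon, the secreted antagonist Sfrp2 had the highest mean level over the 12 libraries at 91.8 CPM per kilobase, followed by Sfrp1 at 37.7, Dkk3 at 31.9, Fzd1 at 26.5 and Ryk at 26.1 CPM per kilobase. These neighbours overlapped: Sfrp2 spanned 17.2 to 285 CPM per kilobase over the libraries, Sfrp1 25.0 to 69.2 and Dkk3 19.9 to 61.8. The highest ligands were Wnt5a at 6.83 and Wnt2 at 6.40 CPM per kilobase, below the highest Frizzled receptors. In the other roles the highest members were Nkd2 at 10.2, Lrp6 at 9.58 and Rspo4 at 2.03 CPM per kilobase. At the low end, Wnt9b, Wnt7a, Wnt1 and Dkk1 had means of 0.0547, 0.0547, 0.0472 and 0.0201 CPM per kilobase.

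**Figure D1:**
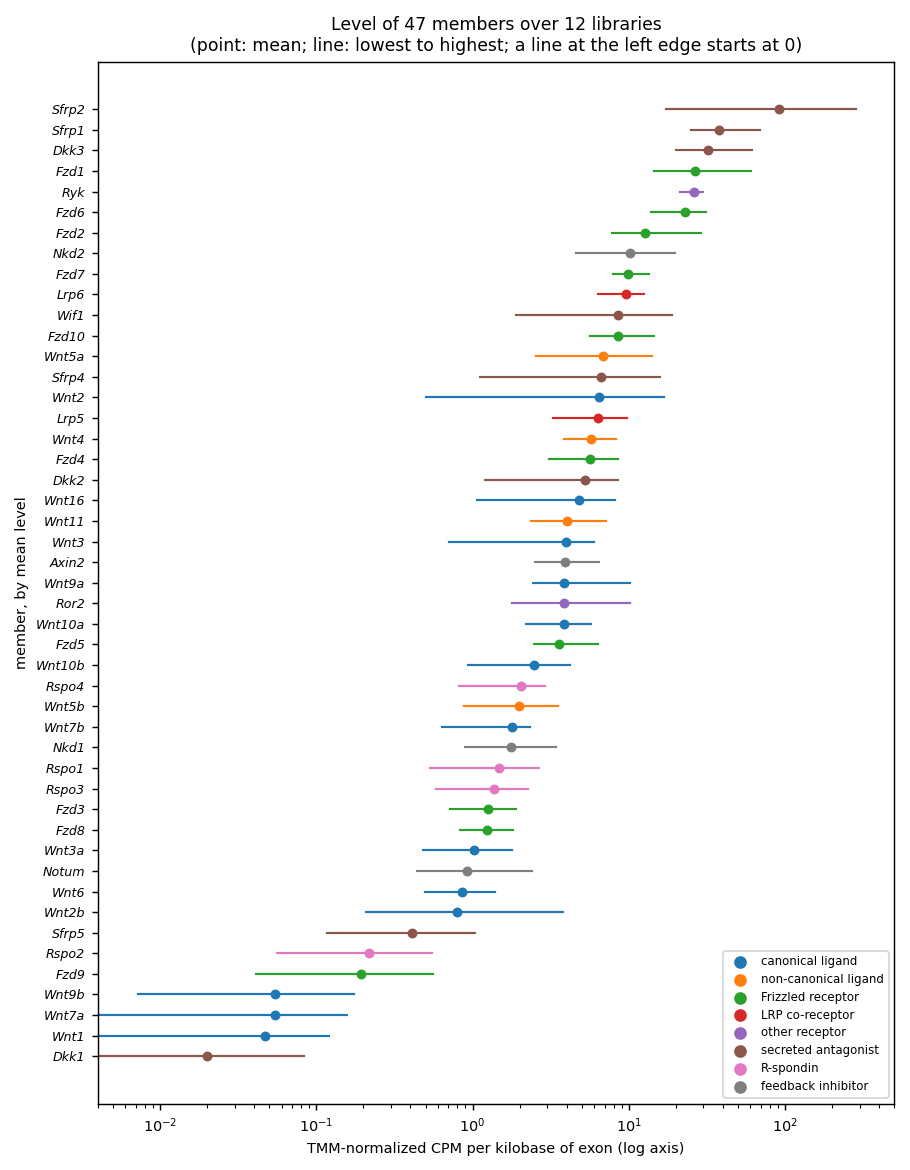
Level of each of the 47 members in CPM per kilobase of exon on a log axis, ordered by the mean over 12 libraries; points are means, lines run from the lowest to the highest library, and colours give the role. Sfrp2, Sfrp1, Dkk3, Fzd1 and Ryk lead, and Wnt9b, Wnt7a, Wnt1 and Dkk1 lie below all other members.

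With traction in Tem1WT/WT mice, the ligand Wnt2b and the Dickkopf family protein Dkk3 rose and the ligand Wnt11 fell. These 3 of the 46 members tested had an adjusted p under 0.05 in edgeR, where the share of all genes was 9.15%. Of the 3, 2 rose, beside 5.61% of all genes, and 1 fell, beside 3.54%. At an unadjusted p under 0.05 there were 18 members (39.1%, beside 31.4% of all genes), of which 8 were higher with traction (16.7% of all genes) and 10 lower (14.7% of all genes). The 3 traction libraries lay wholly above the 3 sham libraries for 4 members, beside 17.7% of all genes, and wholly below them for 11 members, beside 18% of all genes. The median log2 fold change was -0.28 over the members and -0.01 over all genes. The members' median was below 0 under 21 of 22 alternatives and became 0.03 without replicate 2 of the Tem1WT/WT sham group. The count of 3 calls, beside 1725 of all genes, became 9 with DESeq2, beside 4047 of all genes. DESeq2 added Wnt5a and Fzd1, both higher, and Wnt10b, Fzd3, Sfrp5 and Notum, all lower. The count became 2 with limma-voom (735 genes), which did not call Wnt11. It became 0 when only the 6 libraries of this comparison were fitted, where 0 genes were called.

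With the effect of traction averaged over both genotypes, Wnt5a, Fzd1, Lrp5 and Dkk3 rose and Sfrp4 fell. These 5 members stood beside 9.73% of all genes called, with 6.5% of all genes higher and 3.23% lower. At an unadjusted p under 0.05 there were 18 members (39.1%, beside 30.7%). The count of 5, beside 1835 of all genes, became 12 with DESeq2 and 10 with limma-voom, beside 3850 genes with either. Both added Wnt2b, Fzd2, Fzd8 and Ror2, all higher, and Wnt2 and Wnt11, both lower, DESeq2 also added Sfrp2, and limma-voom did not call Wnt5a. In Tem1lacZ/lacZ mice alone, edgeR called no member and no gene (0%), while 7 members (15.2%) had an unadjusted p under 0.05, beside 8.12% of all genes. There the groups did not overlap for 10 members, 7 higher and 3 lower (21.7%, beside 12.9% of all genes). DESeq2 called no member in Tem1lacZ/lacZ mice, beside 28 genes. Limma-voom called 2 members, Lrp5 and Sfrp4, beside 377 genes.

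**Figure D2:**
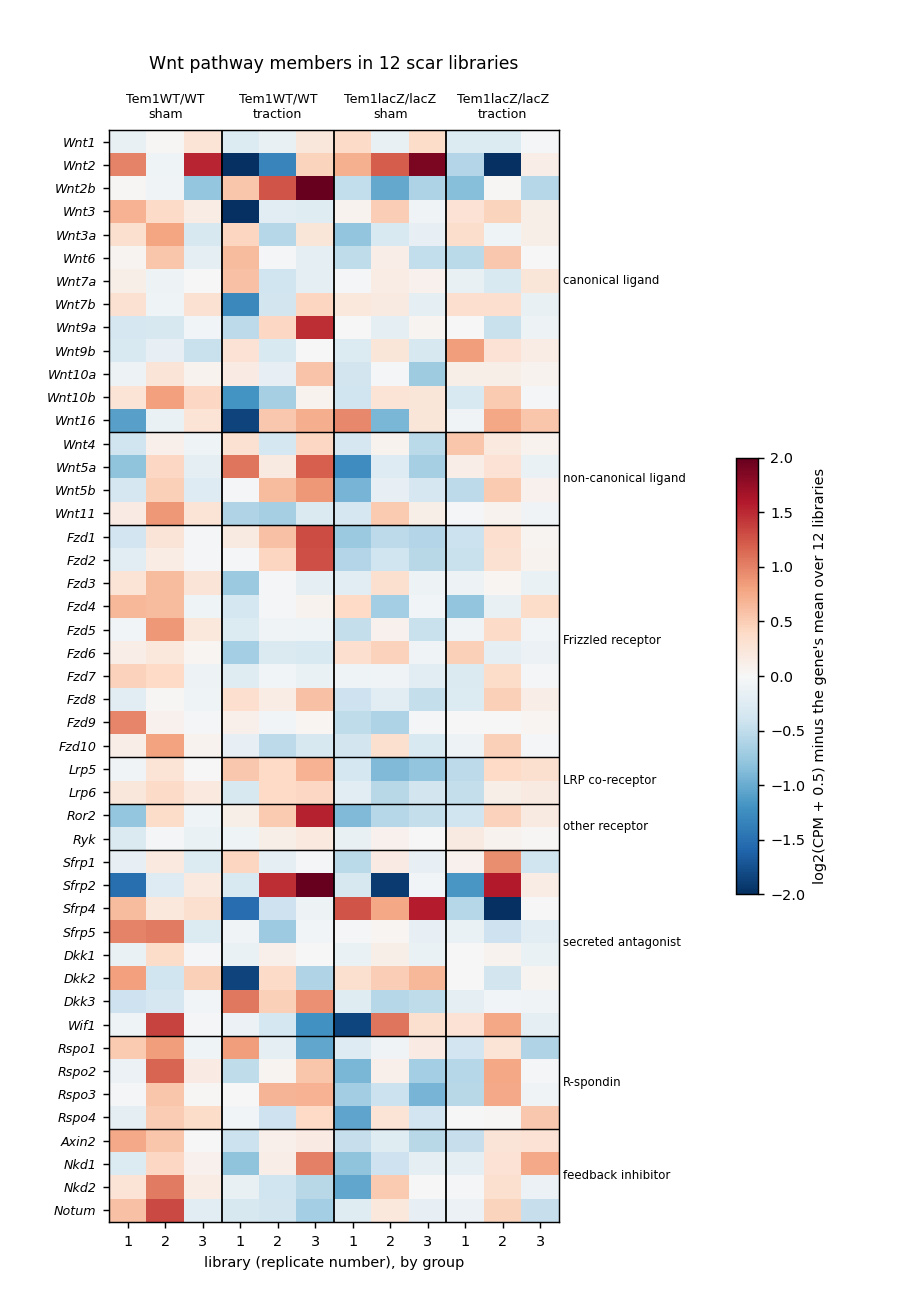
Heat map of the 47 members (rows, by role) in the 12 libraries (columns, by group and replicate number); colour is log2(CPM + 0.5) minus the gene's mean over the 12 libraries, with the scale ending at 2 in each direction. Replicate 3 of the Tem1WT/WT traction group is high for Wnt2b, Wnt9a, Fzd1, Fzd2, Ror2 and Sfrp2, and Wnt2 and Sfrp4 are mostly above their means in the sham groups and mostly below in the traction groups.

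**Figure D3:**
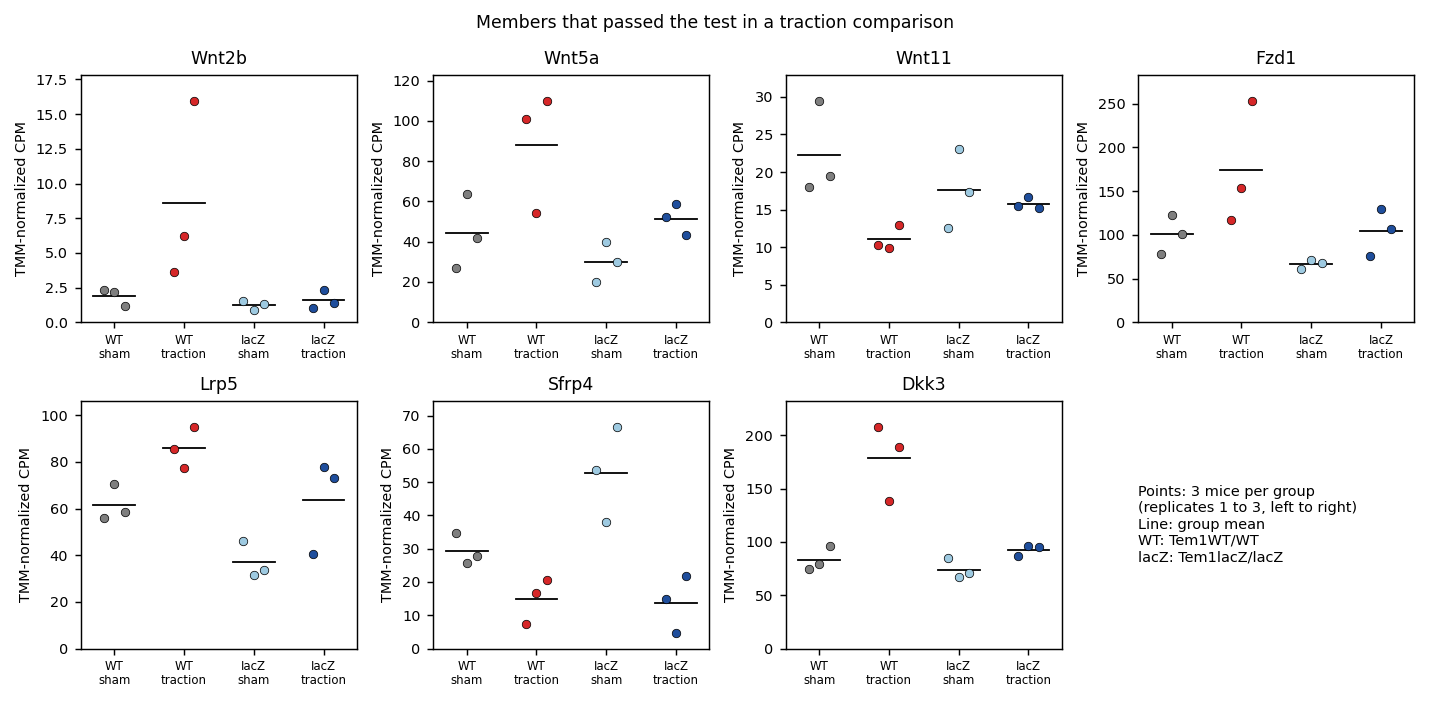
CPM of the 7 members that passed the test in a traction comparison, per mouse (points) with the group mean (line), on axes that start at 0. Dkk3, Wnt2b, Wnt11 and Lrp5 separate traction from sham in Tem1WT/WT mice, and Sfrp4 is lower in all 6 traction libraries than in all 6 sham libraries.

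Among the 13 canonical ligands, Wnt2b (chr3:104944805-104961709, minus strand) changed with traction in Tem1WT/WT mice. Wnt2b measured 2.34, 2.18 and 1.15 CPM in the 3 Tem1WT/WT sham scars and 3.64, 6.25 and 15.9 CPM in the 3 traction scars. All traction libraries lay above all sham libraries, and replicate 3 was the highest of the 12. The rise was 4.56-fold (log2 fold change 2.19, SE 0.54, adjusted p = 0.0372, edgeR). Wnt2b in Tem1lacZ/lacZ mice lay between 0.878 and 1.50 CPM in sham and between 1.06 and 2.35 CPM with traction, and these groups overlapped (log2 fold change 0.37, SE 0.53, adjusted p = 0.858). Between genotypes under traction, Wnt2b was lower in all 3 Tem1lacZ/lacZ libraries than in all 3 Tem1WT/WT libraries, with a log2 fold change of -2.42 (SE 0.54, adjusted p = 0.0845, edgeR). The difference between the traction effects in the 2 genotypes was -1.82 on the log2 scale (SE 0.75, adjusted p = 0.548). Without replicate 3 of the Tem1WT/WT traction group the rise was 1.39 on the log2 scale with an adjusted p of 0.0966. Wnt2b was called with traction in 13 of 22 alternatives. The call was also lost when only the 6 libraries compared were fitted, without any one replicate of the Tem1WT/WT sham group (adjusted p = 0.125, 0.098 and 0.0803), without replicate 3 of the Tem1lacZ/lacZ sham group (0.0587) and without replicate 3 of the Tem1lacZ/lacZ traction group (0.0506).

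Wnt2, the canonical ligand with the highest level per kilobase, was low in traction scars of both genotypes, although edgeR called it in neither and DESeq2 and limma-voom called it in the mean over genotypes. Its values were 20.2, 9.20 and 29.1 CPM in Tem1WT/WT sham scars and 1.14, 3.62 and 13.5 CPM in Tem1WT/WT traction scars. They were, in Tem1lacZ/lacZ mice, 16.5, 23.3 and 37.7 CPM in sham and 6.36, 1.72 and 10.8 CPM in traction. Replicate 3 was the highest of its group in all 4 groups, and the groups overlapped in Tem1WT/WT mice and not in Tem1lacZ/lacZ mice. Averaged over the genotypes, the log2 fold change was -1.85 (SE 0.59, adjusted p = 0.0688, edgeR).

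Wnt3, a ligand of skin epithelium and hair follicles, measured 18.5, 14.8 and 12.5 CPM in Tem1WT/WT sham scars and 2.17, 9.58 and 9.41 CPM in traction scars. The Tem1lacZ/lacZ mice had 11.8, 15.9 and 10.7 CPM in sham and 13.7, 15.3 and 12.1 CPM in traction. Wnt3 was thus lower in the Tem1WT/WT traction libraries than in any other library, with log2 fold changes of -1.11 against Tem1WT/WT sham (SE 0.43, adjusted p = 0.108) and 0.96 for Tem1lacZ/lacZ against Tem1WT/WT under traction (SE 0.43, adjusted p = 0.187). Wnt10b, which also acts in hair follicles and in restraining fat cell formation, measured 9.64, 14.3 and 10.7 CPM in Tem1WT/WT sham scars and 3.16, 4.77 and 8.32 CPM in traction scars (log2 fold change -1.09, SE 0.37, adjusted p = 0.0751). In Tem1lacZ/lacZ mice Wnt10b spanned 5.83 to 9.61 CPM in sham and 6.26 to 11.5 CPM in traction.

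Wnt9a measured 8.07, 15.9 and 33.8 CPM in Tem1WT/WT traction scars, against 9.27 to 11.4 CPM in Tem1WT/WT sham, 10.4 to 12.3 CPM in Tem1lacZ/lacZ sham and 8.58 to 11.9 CPM in Tem1lacZ/lacZ traction scars. Its highest value came from replicate 3 of the Tem1WT/WT traction group and its lowest from replicate 1 of the same group, and it was not called (for genotype under traction, log2 fold change -0.87, SE 0.39, adjusted p = 0.187). Wnt9b had only 2 to 32 counts in a library. Its levels were 0.0328 to 0.145 CPM in Tem1WT/WT sham, 0.0883 to 0.381 in Tem1WT/WT traction, 0.0807 to 0.356 in Tem1lacZ/lacZ sham and 0.302 to 0.789 CPM in Tem1lacZ/lacZ traction scars (mean traction effect 1.40 on the log2 scale, SE 0.54, adjusted p = 0.112). The other 7 canonical ligands, Wnt1, Wnt3a, Wnt6, Wnt7a, Wnt7b, Wnt10a and Wnt16, were not called in any comparison or alternative. Wnt1 had 0 to 14 counts with 3 libraries at 0, Wnt7a had 0 to 21 counts with 1 library at 0, and Wnt16 was the highest of these 7 per kilobase, at 4.66 to 35.7 CPM.

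The 4 non-canonical ligands moved in both directions. Wnt11 (chr7:98835084-98854747, plus strand), a ligand of cell movement in the embryo, measured 18.0, 29.5 and 19.5 CPM in Tem1WT/WT sham scars and 10.3, 9.85 and 13.0 CPM in traction scars. All 3 traction values were below all 3 sham values, a 2.02-fold lower level (log2 fold change -1.01, SE 0.25, adjusted p = 0.0359, edgeR). The Tem1lacZ/lacZ mice had 12.5, 23.1 and 17.4 CPM in sham and 15.5, 16.7 and 15.3 CPM in traction, where the traction values lay inside the range of the sham values (log2 fold change -0.16, SE 0.24, adjusted p = 0.869). The difference between these effects was 0.85 on the log2 scale (SE 0.34, adjusted p = 0.548). Wnt11 was called in 10 of 22 alternatives. The call in Tem1WT/WT mice was lost with limma-voom and when only the 6 libraries compared were fitted. It was also lost when any one library of that comparison was left out, or replicate 3 of the Tem1lacZ/lacZ sham group, or replicate 2 or 3 of the Tem1lacZ/lacZ traction group, with adjusted p between 0.0528 and 0.119. An exon of Wnt11 overlaps the processed pseudogene Gm8398 on the opposite strand, and the strand setting used in counting is not given in the sources used here, so its count is uncertain to that extent.

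Wnt5a (chr14:28504543-28527448, plus strand), a ligand that dermal fibroblasts produce, measured 27.1, 63.6 and 42.0 CPM in Tem1WT/WT sham scars and 101, 54.1 and 109.8 CPM in traction scars. The Tem1lacZ/lacZ mice had 19.9, 40.0 and 29.8 CPM in sham and 52.2, 58.5 and 43.3 CPM in traction. The traction groups were the higher ones in both genotypes, with 1 overlapping library in Tem1WT/WT mice and none in Tem1lacZ/lacZ mice. The log2 fold changes were 1.00 in Tem1WT/WT mice (SE 0.36, adjusted p = 0.0877) and 0.78 in Tem1lacZ/lacZ mice (SE 0.35, adjusted p = 0.614). Averaged over the genotypes, Wnt5a rose by 0.89 on the log2 scale (SE 0.25, adjusted p = 0.0490, edgeR), and the call was lost on leaving out any one library but replicate 2 of the Tem1WT/WT traction group, with adjusted p of 0.0505 to 0.123. It was also lost with all genes that had a count, with upper quartile scaling and with limma-voom, and Wnt5a was called in 5 of 21 alternatives. Wnt5a shares exon sequence with the antisense gene Gm2670. Wnt4 spanned 16.1 to 34.5 CPM and Wnt5b 2.33 to 9.37 CPM over the 12 libraries, and neither was called in any comparison or alternative.

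Among the 10 Frizzled receptors, which bind Wnt ligands at the membrane, Fzd1 rose with traction in the mean over genotypes, and Fzd3, Fzd5, Fzd6 and Fzd10 were lower in all 3 traction libraries than in all 3 sham libraries of Tem1WT/WT mice. These 4 did not pass the test in edgeR. DESeq2 called Fzd3, as did edgeR with upper quartile scaling, with at least 10 counts in every library, or without replicate 2 of the Tem1WT/WT traction group. Fzd1 (chr5:4753839-4758216, minus strand) measured 78.1, 122 and 101 CPM in Tem1WT/WT sham scars and 116, 153 and 253 CPM in traction scars, and 60.9, 70.8 and 67.9 CPM in Tem1lacZ/lacZ sham scars and 75.8, 129 and 107 CPM in traction scars. The groups overlapped by 1 library in Tem1WT/WT mice and did not overlap in Tem1lacZ/lacZ mice. Fzd1 rose by 0.72 on the log2 scale over both genotypes (SE 0.20, adjusted p = 0.0481, edgeR), with 0.80 in Tem1WT/WT (SE 0.29, adjusted p = 0.0891) and 0.64 in Tem1lacZ/lacZ mice (SE 0.29, adjusted p = 0.609). The call was lost without any one of the 6 sham libraries, without replicate 3 of the Tem1WT/WT traction group, or without replicate 2 or 3 of the Tem1lacZ/lacZ traction group, with adjusted p of 0.0697 to 0.123. The call of Fzd1 was also lost with all genes that had a count and with upper quartile scaling. Fzd2 showed 36.8 to 48.0 CPM in Tem1WT/WT sham, 42.5 to 107 CPM in Tem1WT/WT traction, 28.7 to 32.6 CPM in Tem1lacZ/lacZ sham and 31.6 to 53.7 CPM in Tem1lacZ/lacZ traction scars (mean traction effect 0.62, SE 0.21, adjusted p = 0.0806).

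Fzd6, a receptor that orients hairs in the skin, measured 118, 124 and 109.9 CPM in Tem1WT/WT sham scars and 66.6, 88.3 and 86.7 CPM in traction scars (log2 fold change -0.54, SE 0.21, adjusted p = 0.103). Fzd6 in Tem1lacZ/lacZ mice measured 136, 148 and 103 CPM in sham and 150.4, 94.4 and 99.1 CPM in traction, where the groups overlapped. Every Tem1WT/WT traction library was below every library of the other 3 groups for Fzd6. Fzd10 measured 29.4, 47.4 and 28.1 CPM in Tem1WT/WT sham and 23.9, 18.4 and 21.3 CPM in Tem1WT/WT traction scars, and 20.7, 33.6 and 21.6 CPM in Tem1lacZ/lacZ sham and 24.8, 37.3 and 26.4 CPM in Tem1lacZ/lacZ traction scars. The difference of these effects was 0.94 on the log2 scale (SE 0.37, adjusted p = 0.548, edgeR). Fzd3 had a log2 fold change of -0.72 in Tem1WT/WT mice (SE 0.21, adjusted p = 0.0563).

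Fzd9 was a receptor at low level, with 4 to 59 counts. It measured 1.28, 0.464 and 0.393 CPM in Tem1WT/WT sham scars and 0.143, 0.0949 and 0.384 CPM in Tem1lacZ/lacZ sham scars, and the sham groups did not overlap, with the highest Tem1lacZ/lacZ value close to the lowest Tem1WT/WT value (log2 fold change -1.74, SE 0.58, adjusted p = 0.409). The traction libraries lay between 0.375 and 0.476 CPM in both genotypes. Fzd4, Fzd5, Fzd7 and Fzd8 were not called in any comparison in edgeR, while DESeq2 and limma-voom called Fzd8 for the mean traction effect, as did edgeR without replicate 2 of the Tem1WT/WT traction group or replicate 1 of the Tem1lacZ/lacZ traction group. Over the 10 receptors the median log2 fold change with traction was -0.54 in Tem1WT/WT mice, with 3 of 10 above 0 (49.4% of all genes). In Tem1lacZ/lacZ mice it was 0.29, with 7 of 10 above 0 (48.5% of all genes). No Frizzled receptor passed the test of the difference of the effects (smallest adjusted p = 0.548, edgeR).

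The co-receptor Lrp5 (chr19:3584825-3686585, minus strand) measured 55.9, 70.7 and 58.4 CPM in Tem1WT/WT sham scars and 85.7, 77.6 and 94.8 CPM in traction scars. The Tem1lacZ/lacZ mice had 46.1, 31.6 and 33.7 CPM in sham and 40.5, 77.7 and 73.2 CPM in traction. Traction libraries lay above sham libraries in Tem1WT/WT mice, and in Tem1lacZ/lacZ mice replicate 1 of the traction group fell within the sham range. Lrp5 rose by 0.63 on the log2 scale over both genotypes (SE 0.17, adjusted p = 0.0430, edgeR), with 0.48 in Tem1WT/WT (SE 0.24, adjusted p = 0.190) and 0.78 in Tem1lacZ/lacZ mice (SE 0.24, adjusted p = 0.598). Leaving out any one of 9 libraries, all but replicate 1 of the Tem1lacZ/lacZ sham group, replicate 2 of the Tem1WT/WT traction group and replicate 1 of the Tem1lacZ/lacZ traction group, gave adjusted p of 0.0553 to 0.107. The call of Lrp5 was also lost with upper quartile scaling, and it was made in 9 of 21 alternatives.

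Lrp6, the other co-receptor of Wnt signalling, measured 149, 167 and 145 CPM in Tem1WT/WT sham scars and 111, 86.9 and 98.2 CPM in Tem1lacZ/lacZ sham scars. It measured 102, 169 and 170.1 CPM in Tem1WT/WT traction scars and 91.8, 138 and 144 CPM in Tem1lacZ/lacZ traction scars. Both co-receptors were lower in all 3 Tem1lacZ/lacZ sham libraries than in all 3 Tem1WT/WT sham libraries, with log2 fold changes of -0.73 for Lrp5 (SE 0.24, adjusted p = 0.409) and -0.64 for Lrp6 (SE 0.22, adjusted p = 0.409), and neither passed the test. Ryk, an atypical receptor kinase that binds Wnt5a, lay between 96.9 and 136 CPM in the 12 libraries. Ror2, the other Wnt5a receptor, spanned 7.59 to 43.2 CPM, and its mean traction effect of 0.88 (SE 0.28) had an adjusted p of 0.0672.

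Of the 7 secreted antagonists tested, Dkk3 rose and Sfrp4 fell. Dkk3 (chr7:112116019-112159482, minus strand), a divergent Dickkopf protein that does not block Lrp6 as Dkk1 does, measured 74.7, 78.9 and 96.5 CPM in Tem1WT/WT sham scars and 207, 139 and 189 CPM in traction scars. All 3 traction values were above every other library of the series, a 2.14-fold rise (log2 fold change 1.10, SE 0.17, adjusted p = 0.0239, edgeR). Dkk3 in Tem1lacZ/lacZ mice measured 84.5, 66.9 and 70.4 CPM in sham and 87.2, 95.8 and 95.0 CPM in traction, which did not overlap but differed less (log2 fold change 0.33, SE 0.17, adjusted p = 0.634). Between genotypes under traction the log2 fold change was -0.94 (SE 0.17, adjusted p = 0.0808), and the difference of the traction effects was -0.77 (SE 0.24, adjusted p = 0.548). The rise in Tem1WT/WT mice was called in 18 of 22 alternative settings. Its adjusted p was 0.110 without replicate 1 and 0.0869 without replicate 2 of the Tem1WT/WT sham group. The mean over genotypes was 0.71 (SE 0.12, adjusted p = 0.0203), and leaving out replicate 1 or 2 of the Tem1WT/WT sham group, replicate 2 of the Tem1lacZ/lacZ sham group or replicate 2 or 3 of the Tem1lacZ/lacZ traction group gave 0.0503 to 0.0670.

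Sfrp4 (chr13:19623175-19632825, plus strand), a secreted Frizzled-related protein, was the member that fell in the mean over genotypes. It measured 34.6, 25.7 and 27.9 CPM in Tem1WT/WT sham scars and 7.38, 16.5 and 20.6 CPM in traction scars. The Tem1lacZ/lacZ mice had 53.5, 38.1 and 66.5 CPM in sham and 14.7, 4.65 and 21.9 CPM in traction. All 6 traction values were below all 6 sham values. No other member separated the 6 from the 6, and the share of all genes that did so was not computed. Sfrp4 fell by 1.46 on the log2 scale (SE 0.35, adjusted p = 0.0350, edgeR), with -0.98 in Tem1WT/WT (SE 0.49, adjusted p = 0.198) and -1.94 in Tem1lacZ/lacZ mice (SE 0.51, adjusted p = 0.598). The call was lost without any one of the 6 sham libraries or without replicate 2 or 3 of the Tem1lacZ/lacZ traction group, with adjusted p of 0.0535 to 0.0874. It was also lost with all genes that had a count.

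Sfrp2, a fibroblast product and the member with the highest level, measured 49.2, 118 and 161 CPM in Tem1WT/WT sham scars and 114, 391 and 613 CPM in traction scars. Sfrp2 in Tem1lacZ/lacZ mice measured 113, 37.0 and 135 CPM in sham and 62.8, 422 and 156 CPM in traction. In each traction group the range over the 3 mice was wider than the difference between the group means (mean traction effect 1.47 on the log2 scale, SE 0.55, adjusted p = 0.103). Sfrp5, at 0.221 to 1.97 CPM, had 1.89, 1.97 and 0.491 CPM in Tem1WT/WT sham scars, 0.642, 0.221 and 0.657 in Tem1WT/WT traction scars, 0.666, 0.736 and 0.565 in Tem1lacZ/lacZ sham scars and 0.591, 0.400 and 0.528 CPM in Tem1lacZ/lacZ traction scars. Replicates 1 and 2 of the Tem1WT/WT sham group were the high ones, and the log2 fold change in Tem1WT/WT mice was -1.51 (SE 0.54, adjusted p = 0.0884). Sfrp1, Dkk2 and Wif1 were not called in edgeR, apart from Dkk2 for traction without replicate 2 of the Tem1WT/WT traction group, with 109 to 303, 4.47 to 31.4 and 4.57 to 46.0 CPM over the libraries.

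The 4 R-spondins, which act through Lgr receptors, were not called in any comparison or alternative and were low, with Rspo4 the highest. Rspo4 measured 3.99, 6.73 and 6.09 CPM in Tem1WT/WT sham, 4.40, 3.31 and 6.20 CPM in Tem1WT/WT traction, 1.95, 5.65 and 3.39 CPM in Tem1lacZ/lacZ sham and 4.58, 4.65 and 6.92 CPM in Tem1lacZ/lacZ traction scars. Rspo3 measured 3.82, 5.96 and 3.95 CPM in Tem1WT/WT sham and 3.83, 6.49 and 6.57 CPM in Tem1WT/WT traction scars, against 2.19, 2.75 and 1.80 CPM in Tem1lacZ/lacZ sham and 2.49, 6.94 and 3.66 CPM in Tem1lacZ/lacZ traction scars. The 3 Tem1lacZ/lacZ sham libraries and replicate 1 of the traction group of that genotype were the lowest, with log2 fold changes of -1.03 against Tem1WT/WT sham (SE 0.39, adjusted p = 0.409) and 0.96 for traction in Tem1lacZ/lacZ mice (SE 0.39, adjusted p = 0.598). All 4 R-spondins had a log2 fold change below 0 for genotype in the sham groups, beside 51.4% of all genes.

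The 4 feedback inhibitors, whose genes answer canonical signalling, were not called in edgeR, while DESeq2 called Notum with traction in Tem1WT/WT mice, as did edgeR without replicate 3 of the Tem1WT/WT sham group. Axin2 (chr11:108917828-108950783, plus strand), a scaffold of beta-catenin degradation that is widely used as a readout of the pathway, measured 35.3, 30.6 and 20.9 CPM in Tem1WT/WT sham scars and 14.9, 17.5 and 13.8 CPM in Tem1lacZ/lacZ sham scars. These groups did not overlap (log2 fold change -0.91, SE 0.26, adjusted p = 0.409, edgeR). With traction Axin2 measured 15.2, 22.1 and 23.1 CPM in Tem1WT/WT and 14.9, 24.9 and 25.5 CPM in Tem1lacZ/lacZ scars, and these groups overlapped (log2 fold change 0.11, SE 0.26, adjusted p = 0.804). The difference of the traction effects for Axin2 was 1.02 (SE 0.36, adjusted p = 0.548).

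Notum, a secreted enzyme that removes the lipid from Wnt ligands, measured 3.26, 5.76 and 1.67 CPM in Tem1WT/WT sham scars and 1.50, 1.44 and 1.07 CPM in traction scars, which did not overlap (log2 fold change -1.42, SE 0.45, adjusted p = 0.0649). Notum in Tem1lacZ/lacZ mice measured 1.62, 2.40 and 1.74 CPM in sham and 1.80, 2.92 and 1.32 CPM in traction, which overlapped. Nkd2, which binds Dishevelled, measured 55.9, 95.5 and 51.3 CPM in Tem1WT/WT sham scars and 41.5, 34.9 and 31.3 CPM in traction scars (log2 fold change -0.91, SE 0.35, adjusted p = 0.107). Nkd2 in Tem1lacZ/lacZ mice measured 22.3, 66.4 and 46.1 CPM in sham and 45.4, 57.7 and 42.5 CPM in traction, which overlapped. Nkd1 spanned 4.04 to 15.5 CPM over the 12 libraries. Exons of Axin2, Notum, Wnt7b, Fzd5, Fzd6, Sfrp2 and Rspo3 also overlap genes on the opposite strand.

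The effect of traction was set side by side in the 2 genotypes, which share no library in these comparisons. Of the 46 members, 19 had a log2 fold change above 0 in both genotypes, 10 below 0 in both, 15 below 0 in Tem1WT/WT and above 0 in Tem1lacZ/lacZ mice, and 2 (Wnt7a and Wnt9a) the reverse. The signs were the same for 63% of members and for 68.4% of all genes, and the pattern of lower in Tem1WT/WT and higher in Tem1lacZ/lacZ mice held for 32.6% of members and 15.4% of all genes. The median over members was -0.28 in Tem1WT/WT and 0.33 in Tem1lacZ/lacZ mice, against -0.01 and -0.01 over all genes. In Tem1lacZ/lacZ mice it was above 0 under each of 22 alternatives. It lay between 0.03, without replicate 2 of the traction group, and 0.52, without replicate 2 of the sham group. The difference of the effects was above 0 for 32 of 46 members, beside 49.8% of all genes. Its median was 0.35 over members, beside -0.0024 over all genes. No member and no gene passed the test of that difference in edgeR (0% of all genes). DESeq2 and limma-voom called no member, beside 69 genes with DESeq2 and 0 with limma-voom. At an unadjusted p under 0.05 there were 8 members (17.4%, beside 8.91% of all genes). These were 6 above 0 (Wnt11, Fzd5, Fzd7, Fzd10, Axin2 and Notum) and 2 below 0 (Wnt2b and Dkk3).

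**Figure D4:**
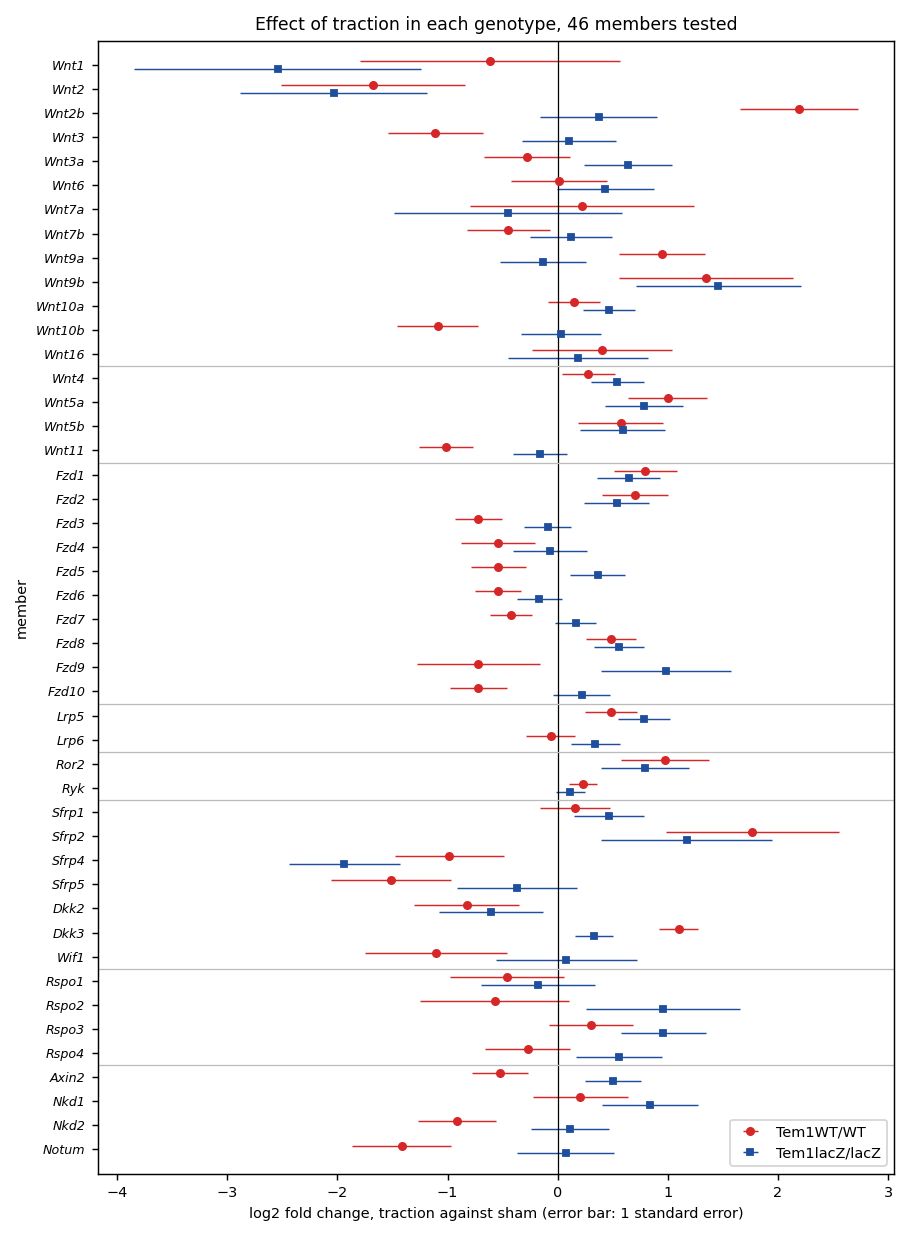
Log2 fold change of traction against sham for the 46 members tested, in Tem1WT/WT mice (circles) and Tem1lacZ/lacZ mice (squares), with bars of 1 standard error. Wnt2, Sfrp2, Wnt5a and Fzd1 lie on the same side of 0 in both genotypes, and Notum, Wnt10b, Wnt3, Nkd2 and Axin2 are below 0 in Tem1WT/WT and above 0 in Tem1lacZ/lacZ mice.

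In the sham groups, most members were lower in Tem1lacZ/lacZ than in Tem1WT/WT mice, without any passing the test. The log2 fold change was below 0 for 36 of 46 members, beside 51.4% of all genes, with a median of -0.47 beside -0.01 over all genes. It was below 0 for all 4 non-canonical ligands, both Lrp co-receptors, all 4 R-spondins, all 4 feedback inhibitors and 9 of 10 Frizzled receptors. The canonical ligands were divided, with 6 above 0 and 7 below. In edgeR 0 members were called, beside 0.0106% of all genes. DESeq2 and limma-voom called no member, beside 43 genes with DESeq2 and 1 with limma-voom. At an unadjusted p under 0.05 there were 7 members (15.2%, beside 11.7% of all genes), all lower (6.62% of all genes were lower at that p): Wnt3a, Fzd5, Fzd9, Lrp5, Lrp6, Rspo3 and Axin2. The Tem1lacZ/lacZ libraries lay wholly below the Tem1WT/WT libraries for 9 members, beside 13.8% of all genes. The median over members was below 0 under each of 22 alternatives, from -0.59 to -0.22.

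Under traction the 2 genotypes differed in no member at an adjusted p under 0.05 in edgeR, beside 0.106% of all genes. DESeq2 called 2 members, Dkk3 and Wnt2b, both lower in Tem1lacZ/lacZ mice, beside 2334 of all genes. Limma-voom called no member, beside 16 genes. When replicate 2 of the Tem1WT/WT traction group was left out, edgeR called the same 2 members, beside 1421 genes. At an unadjusted p under 0.05 there were 8 members (17.4%, beside 26.1% of all genes), of which Wnt3 and Fzd6 were higher in Tem1lacZ/lacZ mice and Wnt2b, Wnt9a, Wnt5a, Fzd1, Fzd2 and Dkk3 were lower. The groups did not overlap for 7 members, 5 higher and 2 lower (15.2%, beside 26.6% of all genes). The median was 0.03 over members and 0.01 over all genes.

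Of 55 other genes of the pathway, 54 were tested. With traction in Tem1WT/WT mice 3 rose and 2 fell, 5 of 54 beside 9.15% of all genes. The rises were Celsr3, a cadherin of planar cell polarity (log2 fold change 2.22, SE 0.57, adjusted p = 0.0398), Wisp1, a secreted matrix protein and target of the pathway (2.06, SE 0.41, adjusted p = 0.0282), and Ptk7, a polarity co-receptor (1.18, SE 0.27, adjusted p = 0.0329). The falls were Tnfrsf19, a receptor expressed in hair follicle progenitors (-1.32, SE 0.36, adjusted p = 0.0460), and Rnf43, which removes Frizzled from the membrane (-1.14, SE 0.24, adjusted p = 0.0314). Averaged over the genotypes 6 rose and 0 fell, beside 9.73% of all genes in either direction, among them Bcl9, a beta-catenin partner (0.66, SE 0.14, adjusted p = 0.0255). In Tem1lacZ/lacZ mice, in both genotype comparisons and for the difference of the effects, 0 of the 54 were called in edgeR, while 10, 20, 19 and 15 of them had an unadjusted p under 0.05, beside 8.12%, 11.7%, 26.1% and 8.91% of all genes. In the sham groups 19 of those 20 were lower in Tem1lacZ/lacZ mice, and the median over the 54 genes was -0.48, close to the -0.47 of the members.

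Some marker lists of hair follicles moved with several of these results, and the lists differed from each other. For 14 genes of the hair shaft and inner root sheath, the summed level was 16674 to 30686 CPM in Tem1WT/WT sham scars, 4423 to 8106 CPM in Tem1WT/WT traction scars, 4397 to 24192 CPM in Tem1lacZ/lacZ sham scars and 8653 to 15762 CPM in Tem1lacZ/lacZ traction scars. All 14 were lower with traction in Tem1WT/WT mice (5 called, median log2 fold change -2.18), and all 14 were higher in Tem1lacZ/lacZ than in Tem1WT/WT mice under traction (0 called, median 1.70). All 6 genes of the hair matrix and placode had log2 fold changes below 0 with traction in Tem1WT/WT mice (1 called, median -1.49) and below 0 for genotype in the sham groups (0 called, median -1.01). With traction in Tem1WT/WT mice these lists thus moved in the same direction as Wnt3, Wnt10b, Wnt11, Nkd2, Notum and Fzd10. These members were among the 25 of 46 below 0 in that comparison, beside 50.6% of all genes. For genotype in the sham groups the hair matrix list moved with Axin2, which was among the 36 of 46 members below 0 there. The hair shaft list was divided there (5 above 0 and 9 below, median -0.17). With traction in Tem1lacZ/lacZ mice 13 of 14 hair shaft genes were below 0 (median -0.41) and 5 of 6 hair matrix genes above 0 (median 0.39). Wnt3, Wnt10b, Nkd2, Notum and Fzd10 were above 0 in that comparison and Wnt11 below. For the bulge and outer root sheath, 5 of 6 genes were below 0 with traction in Tem1WT/WT mice (2 called lower, median -1.10). In Tem1lacZ/lacZ mice 3 were above and 3 below (0 called). Among 7 dermal papilla genes, 6 were below 0 in Tem1WT/WT mice (1 called higher and 1 lower, median -0.34). All 7 were above 0 in Tem1lacZ/lacZ mice (0 called, median 0.75). The part of these lists in the values of the members named was not tested. No gene of these lists was at 0 in any library, and Lef1 of the hair matrix list is itself a target of the pathway. All 7 skeletal muscle markers had log2 fold changes below 0 with traction in Tem1WT/WT mice (0 called, 7 with an unadjusted p under 0.05, median -2.73) and for genotype in the sham groups (0 called, median -1.46). Their summed level was 1269 to 12753 CPM in Tem1WT/WT sham, 324 to 2076 CPM in Tem1WT/WT traction, 1015 to 3239 CPM in Tem1lacZ/lacZ sham and 1447 to 2462 CPM in Tem1lacZ/lacZ traction scars. All 5 sebaceous gland markers were below 0 with traction in Tem1WT/WT mice (1 called, median -0.93), and 4 of the 5 were above 0 for genotype in the sham groups. All 6 adipocyte markers were below 0 with traction in Tem1WT/WT mice (0 called, median -1.47) and above 0 for genotype in the sham groups (0 called, median 1.00). The part of these lists in the members' values was not tested.

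**Figure D5:**
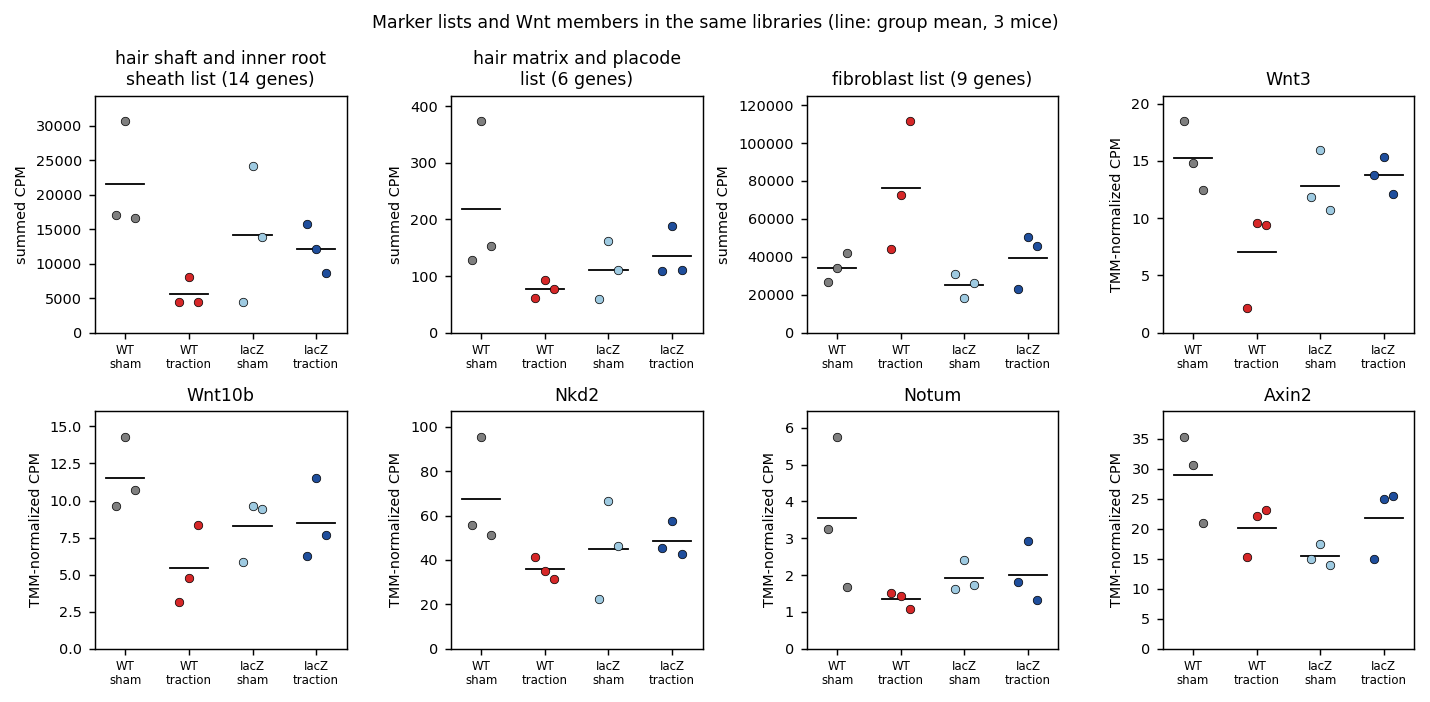
Summed CPM of the hair shaft and inner root sheath, hair matrix and placode, and fibroblast marker lists, and CPM of Wnt3, Wnt10b, Nkd2, Notum and Axin2, per mouse (points) with group means (lines), on axes that start at 0. The hair shaft list spans 4423 to 8106 CPM in the Tem1WT/WT traction scars and at least 16674 CPM in the Tem1WT/WT sham scars. The fibroblast list spans 44387 to 111595 CPM in Tem1WT/WT traction scars, overlapping the 22948 to 50249 CPM of Tem1lacZ/lacZ traction scars.

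With traction in Tem1WT/WT mice, most markers of several other cell types were above 0, as were the members that rose. The 9 fibroblast markers summed to 26623 to 42228 CPM in Tem1WT/WT sham, 44387 to 111595 CPM in Tem1WT/WT traction, 18151 to 31027 CPM in Tem1lacZ/lacZ sham and 22948 to 50249 CPM in Tem1lacZ/lacZ traction scars, with 6 of 9 above 0 and 1 called for traction in Tem1WT/WT mice. The 7 endothelial markers summed to 343 to 506 CPM in Tem1WT/WT sham and 835 to 993 CPM in Tem1WT/WT traction scars (4 called higher). Of 7 neutrophil markers tested, 5 were called higher with traction in Tem1WT/WT mice. In that comparison 3 of 4 wound-edge keratinocyte, 6 of 7 macrophage and 5 of 7 pericyte and smooth muscle markers were above 0 (0 called). The number above 0 was 4 of 9 for interfollicular keratinocyte and 1 of 4 for Schwann cell markers (0 called). With traction in Tem1lacZ/lacZ mice 4 of 9 fibroblast markers were above 0 (0 called, median -0.02). There 6 of 7 endothelial and 6 of 7 neutrophil markers were above 0 (0 called). Wnt2b, Dkk3, Wnt5a, Fzd1 and Sfrp2 were above 0 in that comparison too. The part of these lists in the values of Wnt2b, Dkk3, Wnt5a, Fzd1 and Sfrp2 was not tested. Replicate 1 of the Tem1WT/WT traction group was the library with the highest neutrophil markers. Without it, 3 members were called for traction in Tem1WT/WT mice, beside 360 of all genes. These were Dkk3 (log2 fold change 0.95, adjusted p = 0.0433), Wnt2b (2.53, adjusted p = 0.0433) and Wnt9a, and Wnt11 had an adjusted p of 0.0700.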

How the data were processed

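RNA of 12 mouse scars, 3 mice in each of 4 groups, was sequenced by the authors as stranded poly(A) libraries with paired-end reads. They trimmed reads with fastp 0.20.0, aligned them to GRCm38 with HISAT2 2.1.0 and counted them on genes with featureCounts 2.0.0. The deposited counts are unnormalized whole numbers for each gene in each library. Which annotation and strand setting were used, and how multi-mapping reads were treated, is not given in the sources used here. Groups and replicate numbers came from the sample labels.

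The 47 members and all gene lists were chosen with earlier results of these data known. Counts were scaled by TMM and tested with edgeR 4.0.16 in R 4.3.3 (quasi-likelihood F test, robust, two-sided) in 1 model of the 4 groups with 8 residual degrees of freedom. The 18853 genes that passed filterByExpr (count minimum of 10) were tested, and p-values were adjusted by the Benjamini-Hochberg method over all of them, with a threshold of 0.05. The comparisons were traction against sham in each genotype and in their mean, Tem1lacZ/lacZ against Tem1WT/WT in sham and under traction, and the difference of the traction effects. Levels between genes were divided by exon length from GENCODE vM21 (GRCm38), from which gene strands and exon overlaps also came. Gene coordinates, starts and promoters came from RefSeq. The biological coefficient of variation was 34.2%. The library totals limit the precision for members at a few counts, and counting intervals would not cover variation between mice. The script was tested on simulated data.

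Values in each library are given for members called in any comparison, for the 3 members that rose and the 3 that fell most in each comparison among those with an unadjusted p under 0.05, and for the member with the highest level per kilobase in each role. Values of Wnt10b, Fzd2, Fzd3 and Ror2 were added after they had been seen. Alternatives were other filters, DESeq2 1.42.0, limma 3.58.1 (voom with sample weights), other scalings, a replicate block and the omission of each library. Other assays of the study were not analysed here.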

Additional observations from a re-analysis of the deposited data

How the results depend on the processing

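Numbers in brackets give all genes called in the same setting. The count of members called with traction in Tem1WT/WT mice was 3 in the reported fit (1725). It was 9 with DESeq2 (4047), 0 at an adjusted p under 0.01 (0) and 0 when only the 6 libraries compared were fitted (0). It lay between 0 and 5 when 1 library was left out. It was 0 without replicate 1 (0) or without replicate 2 (0) of the Tem1WT/WT sham group. It was 1 without replicate 3 of the Tem1lacZ/lacZ sham group (169) or traction group (965), and 5 without replicate 2 of the Tem1WT/WT traction group (2861). For the mean over genotypes the count was 5 in the reported fit (1835). It was 2 with all genes that had a count (1198), 3 with upper quartile scaling (1478), 12 with DESeq2 (3850), 10 with limma-voom (3850) and 0 at an adjusted p under 0.01 (1). It lay between 0 and 9 when 1 library was left out. It was 0 without replicate 1 (15) or 2 (185) of the Tem1WT/WT sham group or replicate 2 of the Tem1lacZ/lacZ sham group (0). It was also 0 without replicate 2 (17) or 3 (102) of the Tem1lacZ/lacZ traction group. It was 1 without replicate 3 of the Tem1WT/WT (1018) or Tem1lacZ/lacZ (357) sham group. It was 3 without replicate 1 of the Tem1lacZ/lacZ sham group (957) or replicate 3 of the Tem1WT/WT traction group (1041). It was 8 without replicate 2 of the Tem1WT/WT traction group (2738) and 9 without replicate 1 of the Tem1lacZ/lacZ traction group (3422). In Tem1lacZ/lacZ mice the count of 0 was 2 with limma-voom (377) and lay between 0 and 1 when 1 library was left out. The 1 was Lrp5 without replicate 1 of the traction group (73). For genotype under traction the count of 0 was 2 with DESeq2 (2334) and lay between 0 and 2 when 1 library was left out. The 2 came without replicate 2 of the Tem1WT/WT traction group (1421). For genotype in the sham groups (22 alternatives) and for the difference of the traction effects (21 alternatives) the count was 0 throughout. The stricter threshold makes fewer calls by construction, and the other causes were not tested.

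Over 61 pairs of a named member and a comparison, 1318 values under alternatives were computed, of which 1194 kept their direction and their side of the threshold, 81 no longer passed it, 30 newly passed it and 13 changed sign. None of the 13 belonged to a call. When 1 library was left out, the log2 fold change with traction in Tem1lacZ/lacZ mice lay between -0.0035 and 0.64 for Wnt2b and between -0.32 and 0.11 for Wnt11, that of Sfrp4 for genotype under traction lay between -0.62 and 0.31, and the difference of the traction effects lay between -0.60 and 0.090 for Wnt5a and between -0.34 and 0.25 for Fzd1. Sfrp4 for genotype under traction had 0.010 with upper quartile scaling, and the difference of effects was 0.070 for Wnt5a and 0.023 for Fzd1 with limma-voom. Upper quartile scaling placed the median log2 fold change of all genes at -0.12 for traction in Tem1WT/WT mice and at 0.14 for genotype under traction, where the medians over members were -0.39 and 0.15.

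The labels do not say whether libraries with the same replicate number belong together. The correlation of deviations exceeded 0.1 in 9 of 18 same-numbered pairs, with a range of -0.42 to 0.34, and 8 of 12 libraries correlated best with their own number, which is a hint from the data and not the design. With a replicate block, 5 members were called with traction in Tem1WT/WT mice, 1 higher and 4 lower, beside 1467 of all genes. Dkk3 and Wnt11 were shared with the 3 reported, Wnt2b was not called, and Fzd3, Notum and Wnt10b were added. For the mean over genotypes the block also gave 5, beside 1492 of all genes. Dkk3, Fzd1 and Sfrp4 were shared, Wnt5a and Lrp5 were not called, and Ror2 and Wnt2 were added. In the other 4 comparisons it gave 0. Depth limits Dkk1, Wnt1, Wnt7a, Wnt9b and Fzd9, where a few counts decide a value.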
